A study of Rattus norvegicus with 6 samples.

Results

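The 10 genes described here carry out or control the loading of peptides on MHC class I molecules: B2m, Tap1, Tap2, Tapbp, Psmb8, Psmb9, Psmb10, Psme1, Psme2 and Nlrc5. They were taken by gene symbol from a table of 32623 annotated rat genes, each matched 1 row, and all 10 of the 10 passed the filter on low counts that left 14499 genes to be tested. The samples were RNA from liver tissue of rats (Rattus norvegicus) in a study of hepatocellular carcinoma, sequenced as 6 libraries. The TAE group (3 libraries) had undergone transarterial embolization, the blocking of the arteries that feed a liver tumour, and the HCC group (3 libraries) was its untreated control. The labels give both groups as liver and do not say whether the piece sampled was tumour or liver around it, nor the strain, the way the tumours were raised or the time after embolization. Albumin (Alb), the main secretory product of hepatocytes, stood at 6948, 5318 and 15304 FPKM (fragments per kilobase of exon, scaled to the depth of the library) in TAE replicates 1 to 3 and at 12096, 14853 and 15868 FPKM in HCC replicates 1 to 3.

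Every nucleated cell shows peptides from its own proteins on class I molecules, each built of a heavy chain and the light chain beta-2 microglobulin (B2m). The peptides come from the proteasome, whose constitutive catalytic subunits Psmb6, Psmb7 and Psmb5 are replaced by Psmb9, Psmb10 and Psmb8 in the immunoproteasome of immune cells and of cells exposed to interferon gamma. The PA28 activator (Psme1 and Psme2) caps the proteasome, the transporter Tap1-Tap2 carries peptides into the endoplasmic reticulum, tapasin (Tapbp) holds the empty class I molecule at the transporter, and Nlrc5 is a transactivator of the class I genes.

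Of the 10 genes, 5 lie on rat chromosome 20, in or beside the major histocompatibility complex. Psmb9, Tap1, Psmb8 and Tap2 follow each other there within 36.2 kilobases of the deposited coordinates, and Tapbp lies apart from them. Psmb10 and Nlrc5 are on chromosome 19, Psme1 and Psme2 on chromosome 15 and B2m on chromosome 3. Promoter windows of RefSeq (build GRCr8, 250 bases before to 50 after the annotated start) matched 9 of the 10 genes, all but Nlrc5. The core of the interferon-stimulated response element, that is GAAA, any 2 bases and GAAA again on either strand, occurred in 7 of these 9 windows, in 0 of the 3 windows of Psmb5, Psmb6 and Psmb7, and in 3.92% of all 33469 windows. Its matches are shown because they are a sequence feature that most of the 10 genes share. Each line below gives 30 bases on the gene's strand, 5′ to 3′, with the matched letters in capitals; in Tap1 and Psmb8 the match is on the opposite strand, and in B2m the second run in capitals is a kappa B match, also on the opposite strand.
B2m: catGAAACTGAAAatgGGAAAGTCCCtctg
Tap1: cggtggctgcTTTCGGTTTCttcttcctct
Tap2: gcagcgaagtGAAAGCGAAAgcccgggacc
Tapbp: tttgaggGAAAATGAAAGTGAAAggaaaca
Psmb8: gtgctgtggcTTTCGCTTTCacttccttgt
Psmb10, distal: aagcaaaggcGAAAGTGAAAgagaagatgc
Psmb10, proximal: agtggggggtGAAAGCGAAAgtaggaagcg
Psme2: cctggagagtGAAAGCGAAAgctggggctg

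The stretches are chr3:129549177-129549206 (plus strand) for B2m, chr20:4668645-4668674 (minus) for Tap1, chr20:4652318-4652347 (minus) for Tap2, chr20:4967881-4967910 (minus) for Tapbp, chr20:4657016-4657045 (minus) for Psmb8, chr19:50743346-50743375 and chr19:50743290-50743319 (minus) for Psmb10, and chr15:33052785-33052814 (minus) for Psme2. The first matched base lay 150 bases before the start in B2m, 121 in Tap1, 73 and 17 in Psmb10, 53 in Psme2, 41 in Tap2, 26 in Tapbp and 4 in Psmb8. In Tapbp a pair of matches overlap, so that its capitals run on. Psmb9 and Psme1 held no match in their own windows. Psmb9 and Tap1 are read in opposite directions from a stretch of 408 bases between them, and the Tap1 match shown lies in that stretch.

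A kappa B motif (GGGA, any 2 bases and TTCC, either strand, 1.3% of all windows) matched in B2m, Tap1 and Tapbp, that is in 3 of the 9 windows. In B2m it follows the interferon element within the 30 bases printed. The other matches are shown for comparison with it:
Tap1: gcgggttctcGGGACTTTCCgcgcacgccc
Tapbp: gaccagcgcaGGGAATTTCCagttcctcac

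These lie at chr20:4668579-4668608 and chr20:4967919-4967948, both on the minus strand, with the first matched base 55 and 61 bases before the start. The gamma-activated site TTCNNNGAA, which reads alike on both strands, matched in Psmb8 alone among the 9 genes (8.87% of all windows). The Y box CCAAT matched in 3 of the 9 (37.5% of all windows) and the X2 box core TGACG in 2 of the 9 (21.2%), shares that differ little from the background. A further kappa B form, that of the class I enhancer, matched in 0 of the 9 windows and in 0.302% of all windows. It matched in RT1-A1 and RT1-A2, that is in 2 of the 3 RT1 heavy chain windows that were picked for the search. The interferon element matched in 1 of these 3, RT1-S3. All of these are matches of letters and do not show that a factor was bound.

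**Figure D1:**
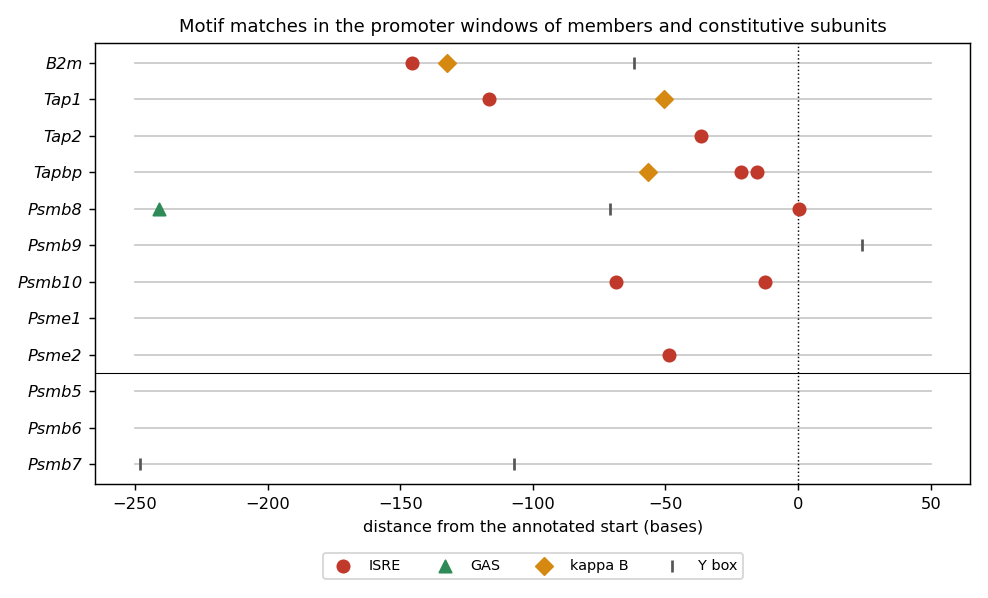
Motif matches in the promoter windows of 9 class I processing genes (above the line) and of the constitutive subunits Psmb5, Psmb6 and Psmb7 (below it). The horizontal axis is the distance in bases from the annotated start, and symbols mark the interferon-stimulated response element (ISRE), gamma-activated site (GAS), kappa B motif and Y box. ISRE circles appear in 7 of the 9 upper rows and in 0 of the 3 lower rows.

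Total counts were 14552885 to 16604067 per TAE library and 13448286 to 14370846 per HCC library. The TAE libraries differed more from each other than the HCC libraries did: across genes, Pearson's r of log2 CPM (counts scaled to a common library size) was 0.935 to 0.969 within TAE and 0.984 to 0.991 within HCC, and TAE replicate 2 correlated at 0.967 to 0.969 with the HCC libraries. In edgeR's quasi-likelihood test of TAE against HCC, 437 of 14499 genes (3.01%) passed an adjusted p of 0.05. Leaving out TAE replicate 2 made that number 3569, and leaving out TAE replicate 3 made it 1226. It was 1 without TAE replicate 1 or HCC replicate 2 and 0 without HCC replicate 1 or 3, where edgeR still gave 2210 and 1997 genes an unadjusted p under 0.05.

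None of the 10 class I processing genes passed over all genes in edgeR, in either direction. These 0 of 10 stand against 3.01% of all genes tested, namely 2.7% that rose and 0.31% that fell. At an unadjusted p under 0.05 stood 4 of the 10, all higher in TAE, against 22.7% of all genes, 15.9% higher and 6.82% lower. The same 4 genes (B2m, Nlrc5, Psmb9 and Psmb8) had FPKM values in the TAE libraries that all exceeded those in the HCC libraries, which held for 21.9% of all genes tested, while 5.54% did not overlap in the other direction. DESeq2 also called 0 of the 10 (7.71% of all genes, 3 of the 10 at an unadjusted p under 0.05), as did limma on log2(FPKM + 1) and on log2(FPKM + 0.1) of genes past an FPKM filter (4.65% and 3.58% of all genes, 4 of the 10 unadjusted). In edgeR 0 of the 10 passed with RLE size factors (3.28% of all genes), upper-quartile factors (4.97%), library totals (7.15%) or no count filter (3.83%), with 4, 4, 4 and 3 of the 10 at an unadjusted p under 0.05. The calls were 3 of the 10 in limma voom with sample weights, where 41.2% of all genes passed, and 1 of the 10 in limma with no FPKM filter, where 0.356% passed. Without TAE replicate 2, 2 of the 10 passed in edgeR against 24.2% of all genes. Without TAE replicate 3 none did (0 of the 10, 3 unadjusted, against 8.33% of all genes), nor without TAE replicate 1 or HCC replicate 2, where 0.00681% and 0.00675% of all genes passed and 4 and 2 of the 10 had an unadjusted p under 0.05. Log2 changes ran from -0.45 to 0.69 with a median of 0.18, against -0.03 over all genes tested. The highest values were those of the 4 genes named, and the remaining 6 lay between -0.45 and 0.20. For 10 of the 10 the coefficient of variation of FPKM was larger in TAE than in HCC.

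B2m (ENSRNOG00000017123) was by far the most abundant of the genes. It stood at 1664, 1661 and 2354 FPKM in TAE replicates 1 to 3, against 1169, 1202 and 1105 FPKM in HCC replicates 1 to 3. All 3 TAE libraries were above every HCC library, and TAE replicate 3 stood well above the other two. The means were 1893 ± 399 FPKM in TAE and 1159 ± 49.6 FPKM in HCC (SD, n = 3 each), a log2 change of 0.69 ± 0.25 (SE; edgeR adjusted p = 0.169). Leaving out TAE replicate 3 gave a log2 change of 0.40. Leaving out TAE replicate 2 gave one of 0.84, which passed (edgeR adjusted p = 0.0404).

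The heavy chains that pair with B2m are encoded in rats by the RT1 class I genes. These are so alike that reads may have been assigned to the wrong member, which makes each value uncertain as that of a single gene. Of 18 such genes tested, 0 passed in edgeR, 7 had an unadjusted p under 0.05 (all higher in TAE, against 15.9% of all genes), 16 had a positive log2 change, and the median was 0.60 against -0.03 over all genes. Without TAE replicate 2, 7 of the 18 passed, where 24.2% of all genes did, and in voom with sample weights 7 of the 18, where 41.2% did. RT1-A2, a classical class I heavy chain, stood at 122, 131 and 245 FPKM in TAE and at 76.0, 93.1 and 81.8 FPKM in HCC (log2 change 0.99 ± 0.34, edgeR adjusted p = 0.155). Here too TAE replicate 3 was highest and the groups did not overlap, as for 21.9% of all genes tested in that direction. RT1-CE5, RT1-CE4, RT1-CE7, RT1-T24-3 and RT1-T24-4 had log2 changes of 1.04, 0.79, 0.76, 0.75 and 0.79. RT1-S3 and RT1-N3 had changes of 0.06 and 0.19, and RT1-N2 and RT1-M3-1 of 0.48 and 0.42. Averaged over the 18 genes, log2 CPM minus the mean of the HCC libraries was 0.36, 0.12 and 1.04 in TAE replicates 1 to 3. The FPKM ratio of B2m to RT1-A2 was 13.6, 12.7 and 9.59 in TAE and 15.4, 12.9 and 13.5 in HCC, which overlap (exact permutation test, two-sided p = 0.3).

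Nlrc5 (ENSRNOG00000048222), the class I transactivator, had the smallest coefficient of variation of FPKM among the 10 genes, 3.76% in TAE and 1.51% in HCC. It stood at 8.3, 8.08 and 8.7 FPKM in TAE replicates 1 to 3, against 5.81, 5.86 and 5.69 FPKM in HCC replicates 1 to 3. The groups did not overlap. On log2 CPM with TMM factors, the scale of the test, the TAE libraries were wider apart, at 5.51, 5.37 and 5.81 in TAE and 5.07, 5.10 and 5.09 in HCC, and TAE replicate 2 differed less from the HCC libraries than from TAE replicate 3. The log2 change was 0.49 ± 0.14 (edgeR adjusted p = 0.112, unadjusted p = 0.0111), and it was 0.59 without TAE replicate 2, where it passed (edgeR adjusted p = 0.0223). Ciita, which serves the class II genes as Nlrc5 serves class I, rose, at 28.2, 22.7 and 22.2 FPKM in TAE and 13.5, 12.8 and 10.9 FPKM in HCC (log2 change 0.93 ± 0.15, edgeR adjusted p = 0.0393). The FPKM ratio of Ciita to Nlrc5 was 3.4, 2.81 and 2.55 in TAE and 2.32, 2.18 and 1.92 in HCC. The ratio was higher in every TAE library (exact permutation test, two-sided p = 0.1, the smallest that 3 against 3 libraries allow). How often the ratios of other gene pairs are apart likewise was not computed.

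The catalytic subunits of the immunoproteasome had positive log2 changes, none of which passed. Psmb9 (ENSRNOG00000000459), which takes the place of Psmb6, was at 73.3, 88.9 and 78.0 FPKM in TAE replicates 1 to 3, against 56.8, 60.9 and 55.9 FPKM in HCC replicates 1 to 3 (log2 change 0.42 ± 0.13, edgeR adjusted p = 0.117). Psmb8 (ENSRNOG00000000456), which takes the place of Psmb5, was at 46.3, 52.1 and 51.1 FPKM in TAE, against 37.0, 40.9 and 37.7 FPKM in HCC (log2 change 0.33 ± 0.14, edgeR adjusted p = 0.216). For both genes each TAE library was above each HCC library. Psmb10 (ENSRNOG00000019494), which takes the place of Psmb7, was at 85.5, 101 and 75.5 FPKM in TAE and at 79.0, 70.5 and 70.2 FPKM in HCC, so that the groups overlapped. Its log2 change was 0.20 ± 0.11 (edgeR adjusted p = 0.322). On log2 CPM with TMM factors, which correct for library composition, the groups did not overlap for 5 of the 10 genes, Psmb10 being the fifth. This held for 18.6% of all genes tested in the same direction, and for 13.4% in the other.

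**Figure D2:**
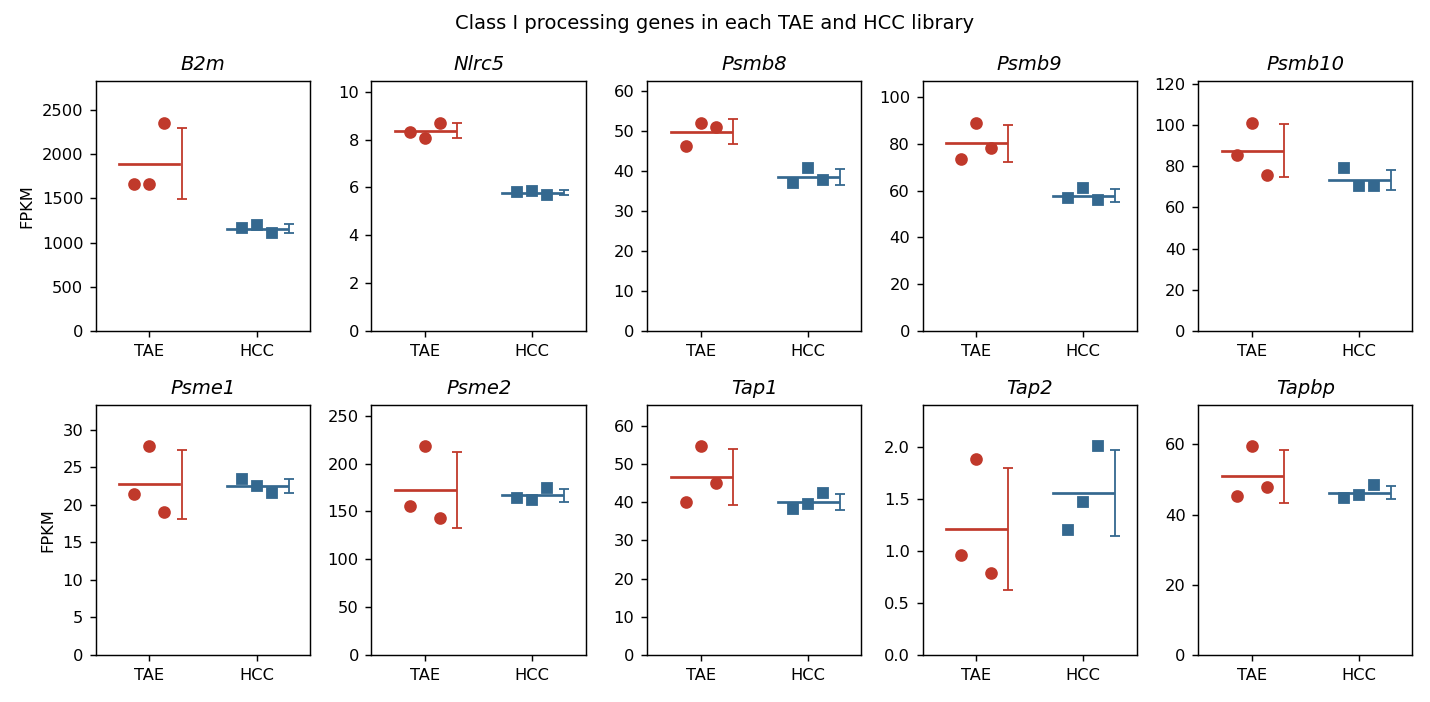
FPKM of the 10 class I processing genes in each TAE library (circles) and HCC library (squares), with replicates 1 to 3 from left to right, the mean as a horizontal line and the SD as an error bar (n = 3 per group). The groups are apart for B2m, Nlrc5, Psmb8 and Psmb9 and overlap for the other 6 genes.

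The constitutive counterparts had log2 changes of the opposite sign, and none of the 3 passed in edgeR. Psmb5 was at 73.3, 96.2 and 59.5 FPKM in TAE and 87.9, 94.0 and 101 FPKM in HCC (log2 change -0.37 ± 0.14, unadjusted p = 0.0298, edgeR adjusted p = 0.176; without TAE replicate 2 it was -0.49 and passed at 0.0303). Psmb7 was at 47.0, 65.1 and 43.5 FPKM in TAE and 56.0, 65.0 and 61.9 FPKM in HCC (log2 change -0.30 ± 0.14). Psmb6 was at 100, 128 and 88.4 FPKM in TAE and 101, 122 and 121 FPKM in HCC (log2 change -0.19 ± 0.14). By FPKM, TAE replicate 2 was the highest TAE library for each of the 3, within or above the range of the HCC libraries. On log2 CPM with TMM factors it was within that range for Psmb6 and Psmb7. For Psmb5 it was 6.22, below the 6.27, 6.38 and 6.51 of HCC replicates 1 to 3. Groups apart in that direction were seen for 13.4% of all genes tested.

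Because each catalytic pair was measured in the same libraries, the FPKM ratio within a library does not depend on how libraries are scaled. The ratio of Psmb8 to Psmb5 was 0.632, 0.541 and 0.858 in TAE replicates 1 to 3 and 0.421, 0.435 and 0.375 in HCC replicates 1 to 3. Psmb9 to Psmb6 stood at 0.733, 0.697 and 0.882 in TAE and 0.560, 0.499 and 0.461 in HCC. Psmb10 to Psmb7 stood at 1.82, 1.56 and 1.74 in TAE and 1.41, 1.08 and 1.13 in HCC. All 3 ratios were higher in every TAE library than in any HCC library, TAE replicate 2 being the lowest TAE library each time. How often the ratios of other gene pairs are apart in this way was not computed. For single genes, FPKM was apart for 21.9% of all genes tested with TAE higher and for 5.54% with TAE lower.

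The differences in mean log2 ratio (TAE minus HCC) were 0.70 for Psmb8 to Psmb5, 0.60 for Psmb9 to Psmb6 and 0.50 for Psmb10 to Psmb7, which are ratios 1.62, 1.52 and 1.41 times as high in TAE. Each gave the smallest p that this design allows (exact permutation test, two-sided, p = 0.1, 0.16 after Benjamini-Hochberg adjustment over 8 ratios), so none could pass 0.05. Psmb8, Psmb9 and Psmb10 together made up 48.2%, 45.6% and 51.7% of the summed FPKM of the 6 catalytic subunits in TAE and 41.3%, 38.0% and 36.6% in HCC. The mean share was 48.5% ± 3.03 in TAE and 38.6% ± 2.43 in HCC (SD, n = 3 each). Psmb10 was thus the subunit most abundant relative to its counterpart in both groups, and Psmb8 the one whose ratio differed most between them.

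**Figure D3:**
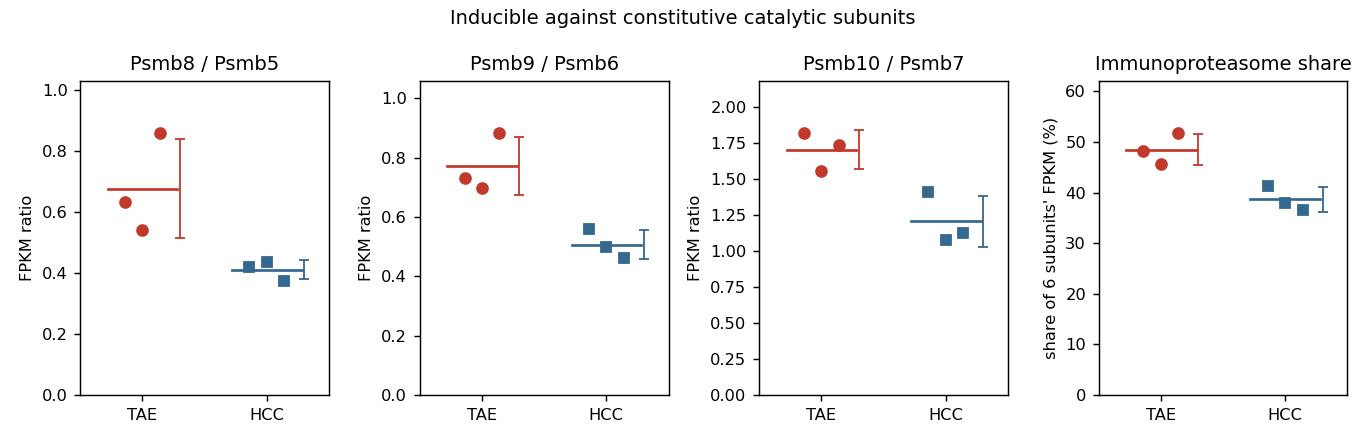
FPKM ratio of each immunoproteasome catalytic subunit to the constitutive subunit it replaces, and the share of the summed FPKM of the 6 subunits (in percent), in each TAE library (circles) and HCC library (squares), with the mean as a line and the SD as an error bar (n = 3 per group). In all 4 panels every TAE library lies above every HCC library.

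The remaining proteasome genes had small negative log2 changes. Of 38 tested (the constitutive catalytic subunits, other subunits of the core particle, the regulatory cap, other activators and assembly factors), 38 had a negative log2 change, from -0.48 to -0.05 with a median of -0.27, against -0.03 over all genes. Of all 14499 genes tested, 7704 had a negative log2 change. None of the 38 passed in edgeR, against 3.01% of all genes. At an unadjusted p under 0.05 stood 7 of the 38, all lower in TAE, against 22.7% of all genes, 6.82% lower. DESeq2 called 1 of the 38, where 7.71% of all genes passed, and limma voom with sample weights 27, where 41.2% did. Under scaling to library totals, 37 of the 38 were negative with a median of -0.21. Without TAE replicate 2, 15 of the 38 passed in edgeR, where 24.2% of all genes did. Psmd8, a subunit of the regulatory cap, was at 60.8, 73.6 and 53.1 FPKM in TAE and 76.0, 84.1 and 87.1 FPKM in HCC (log2 change -0.46 ± 0.12, edgeR adjusted p = 0.0864). Psmc6, an ATPase of the same cap, had a log2 change of -0.38. Psma7 and Psma5 of the core particle had changes of -0.25 and -0.22. Psmg2, a proteasome assembly chaperone, and Psme4, the PA200 activator, had changes of -0.46 and -0.27. Psma3 was not analysed here.

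Psme1 and Psme2, the chains of the PA28 activator, are known to be induced by interferon gamma like the catalytic subunits, and had log2 changes close to 0. Psme2 (ENSRNOG00000019246) was at 156, 218 and 143 FPKM in TAE replicates 1 to 3, against 164, 162 and 175 FPKM in HCC replicates 1 to 3. The TAE values lay on both sides of the HCC values, with TAE replicate 2 above and the other two below. Psme1 (ENSRNOG00000019041) was at 21.4, 27.8 and 19 FPKM in TAE and 23.5, 22.5 and 21.6 FPKM in HCC, in the same pattern. The log2 changes were -0.02 ± 0.14 for Psme2 and -0.05 ± 0.14 for Psme1 (edgeR adjusted p = 0.929 and 0.825), and their signs turned with scaling to library totals (0.04 and 0.01). The FPKM ratio of Psme2 to Psme1 varied little between libraries, at 7.31, 7.85 and 7.52 in TAE and 6.96, 7.2 and 8.1 in HCC (exact permutation test, two-sided p = 0.7).

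**Figure D4:**
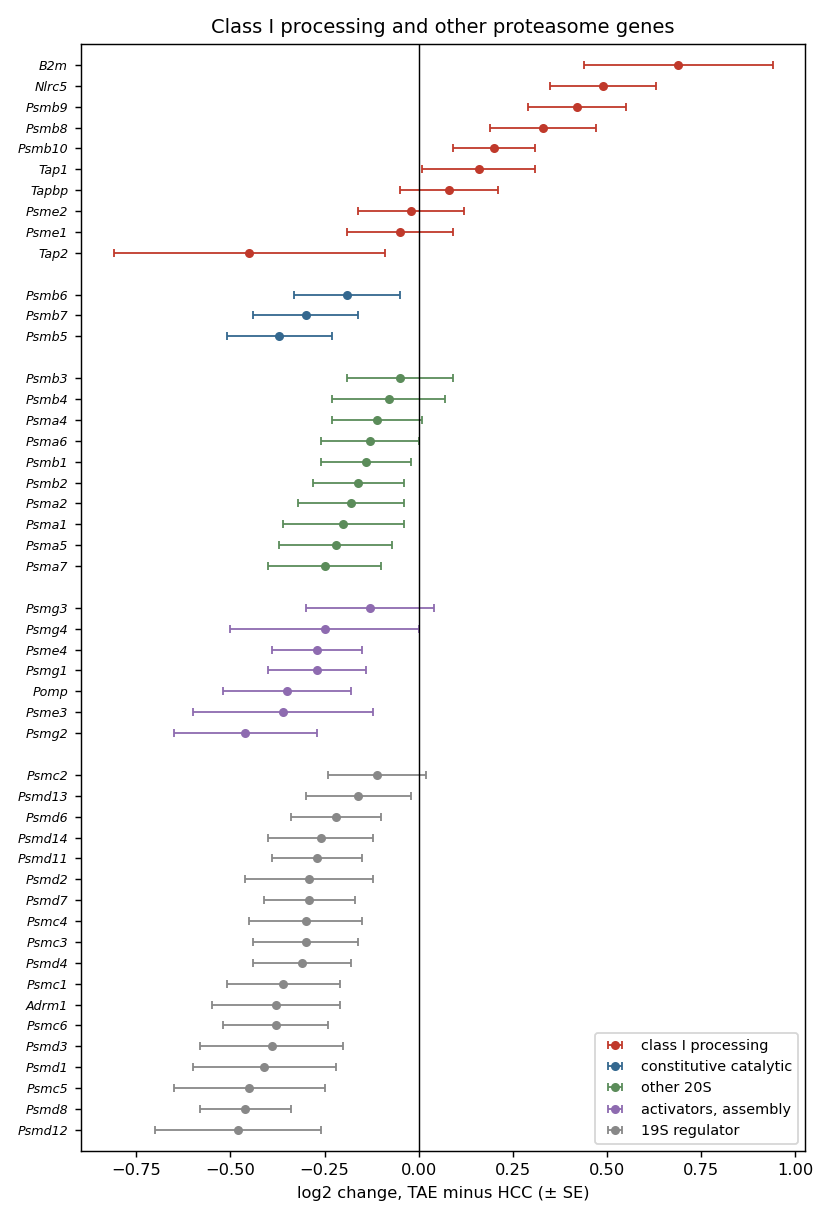
Log2 change (TAE minus HCC, edgeR) with its SE for the 10 class I processing genes and 38 other proteasome genes, ordered within each group. B2m, Nlrc5, Psmb9 and Psmb8 lie to the right of zero by more than 2 SE. All 38 other proteasome genes lie left of zero, by 0.05 to 0.48, some of them also by more than 2 SE, such as Psmd8 (-0.46 ± 0.12) and Psmb5 (-0.37 ± 0.14). No gene shown passed an adjusted p of 0.05.

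Tap1 and tapasin had small positive log2 changes that did not pass. Tap1 (ENSRNOG00000000457) was at 40.1, 54.6 and 45.1 FPKM in TAE replicates 1 to 3, against 38.3, 39.5 and 42.5 FPKM in HCC replicates 1 to 3 (log2 change 0.16 ± 0.15, edgeR adjusted p = 0.510). Tapbp (ENSRNOG00000029500) was at 45.4, 59.4 and 47.7 FPKM in TAE, against 44.8, 45.5 and 48.5 FPKM in HCC (log2 change 0.08 ± 0.13, edgeR adjusted p = 0.722). Both groups overlapped for each gene, TAE replicate 2 was the highest of all 6 libraries by FPKM and TAE replicate 3 by log2 CPM with TMM factors (7.71 for Tap1 and 6.78 for Tapbp), and both signs turned in limma voom with sample weights (-0.06 and -0.09). Tap2 (ENSRNOG00000000455), the partner chain of the transporter, was listed far below Tap1, at 0.96, 1.89 and 0.79 FPKM in TAE and 1.2, 1.47 and 2.01 FPKM in HCC. These values rest on 34, 76 and 32 counts in TAE and 42, 48 and 69 counts in HCC. Its log2 change was -0.45 ± 0.36 (edgeR adjusted p = 0.459), and when 1 library was left out it ran from -0.81 without TAE replicate 2 to -0.20 without HCC replicate 3. The FPKM ratio of Tap1 to Tap2 was 41.8, 28.9 and 57.1 in TAE and 31.9, 26.9 and 21.1 in HCC (exact permutation test, two-sided p = 0.2).

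The transporter chains, which act as a pair, were thus listed at FPKM values that differed by more than 20-fold in every library. Among 12 genes tested that assist loading or trim peptides, 0 passed in edgeR, against 3.01% of all genes, and the median log2 change was -0.05. At an unadjusted p under 0.05 stood 2 of the 12 (both lower in TAE), against 22.7% of all genes, 15.9% higher and 6.82% lower. The genes named next are those with the smallest p of their list. Thop1, a cytosolic peptidase that degrades class I ligands, had a log2 change of -0.71 ± 0.28, and Lap3, an interferon-inducible leucine aminopeptidase, one of -0.38 ± 0.12 (edgeR adjusted p = 0.197 and 0.131). Among 6 genes of class I-like molecules, 0 passed in edgeR and 1 had an unadjusted p under 0.05, against the same shares of all genes. That gene was Mr1, which presents vitamin metabolites to T cells, with a log2 change of 0.95 ± 0.40, and Procr, the protein C receptor, followed with 0.49 ± 0.24.

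Of 14 genes of interferon gamma signalling tested, 2 rose in edgeR and 0 fell, against 2.7% and 0.31% of all genes. At an unadjusted p under 0.05 stood 7 of the 14, all higher in TAE, against 15.9% of all genes. The log2 change was positive for 13 of the 14, with a median of 0.36 against -0.03 over all genes. Ifngr1, the ligand-binding chain of the interferon gamma receptor, rose, at 131, 87.5 and 104 FPKM in TAE and 50.5, 49.4 and 41.2 FPKM in HCC (log2 change 1.15 ± 0.20, edgeR adjusted p = 0.0406). Irf8, an interferon regulatory factor of myeloid and B cells, rose, at 79.0, 73.1 and 74.0 FPKM in TAE and 43.0, 39.1 and 36.7 FPKM in HCC (log2 change 0.88 ± 0.14, edgeR adjusted p = 0.0388). Of 11 transactivation genes tested, 1 rose (Ciita) and 0 fell, with a median log2 change of 0.10. The calls of Ifngr1, Irf8 and Ciita held without TAE replicate 2 or 3 and were lost when any of the other 4 libraries was left out (edgeR adjusted p = 0.145 without TAE replicate 1 and 0.186, 0.142 and 0.223 without HCC replicates 1 to 3, alike for all 3 genes).

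Ifng and Irf1 are given because of their place upstream of the 10, chosen after their values were seen. Ifng, which encodes interferon gamma itself, was at 5.79, 8.04 and 4.25 FPKM in TAE and 4.50, 7.58 and 4.72 FPKM in HCC, which overlap (log2 change 0.03 ± 0.32). Irf1, a transcription factor that carries the interferon gamma signal to its target genes, was at 129, 156 and 116 FPKM in TAE and 101, 97.5 and 102 FPKM in HCC. Every TAE library was above every HCC library, as for 21.9% of all genes tested, and the log2 change of 0.35 ± 0.12 did not pass (edgeR adjusted p = 0.142).

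In bulk tissue, fewer cells of a type and less RNA per cell cannot be told apart, and markers of several cell types differed between the groups. Of 15 macrophage markers 6 rose in edgeR, against 2.7% of all genes. Their summed FPKM was 4168 to 6049.7 in TAE and 1618 to 1940.4 in HCC. Lysozyme (Lyz2) made up most of the TAE sums, and the other 14 summed to 1377 to 2698 FPKM in TAE and 863 to 1017 FPKM in HCC. Of the 15, 12 had a positive log2 change, Vsig4 among them (0.42 ± 0.50), and 3 a negative one. The 3 were the scavenger and lectin receptors Cd163, Marco and Clec4f, at -0.10 ± 0.31, -0.05 ± 0.76 and -0.38 ± 0.41. Marco was at 13.7, 12.6 and 80.5 FPKM in TAE and 49.9, 31.9 and 34.5 FPKM in HCC. The 6 macrophage calls became 10 and 11 without TAE replicates 2 and 3, and 0 when any of the other 4 libraries was left out. Over all genes, 24.2% and 8.33% passed without TAE replicates 2 and 3, and 0 or 1 gene without each of the other 4 libraries. The counts of the lists below stand against the same shares. With all 6 libraries, 2.7% of all genes rose and 0.31% fell. At an unadjusted p under 0.05 stood 22.7% of all genes, 15.9% higher and 6.82% lower. The counts below at that p are all of genes higher in TAE, except those of hepatocyte markers, which are all lower. The 14 T and NK cell markers, of which 0 passed and 4 had an unadjusted p under 0.05 in edgeR, summed to 309 to 525 FPKM in TAE and 174 to 246 FPKM in HCC. Cd4 and Cd8a held most of these TAE sums, and the other 12 overlapped between the groups, at 96.5, 144 and 226 FPKM in TAE and 92.3, 131 and 114 FPKM in HCC. Without TAE replicates 2 and 3, 3 and 2 of the 14 passed. Of 11 dendritic cell markers 3 rose, with summed FPKM of 61.0 to 84.3 in TAE and 32.4 to 38.2 in HCC, and 0 passed when TAE replicate 1 or any HCC library was left out. The 13 hepatocyte markers, none of which passed (0 in edgeR, 3 at an unadjusted p under 0.05), summed to 8343 to 24890.3 FPKM in TAE and 19608 to 25186 FPKM in HCC. Without TAE replicate 3, 8 of the 13 passed, where 8.33% of all genes did, and in voom with sample weights 9 passed, where 41.2% did. Fibroblast and cholangiocyte markers (1 of 9 and 1 of 6 rose, 7 and 3 passed without TAE replicate 2, 5 and 2 with TAE replicate 3 left out, and 0 when any of the other 4 libraries was left out) summed to 1182 to 3099 and 110.2 to 251 FPKM in TAE, against 476 to 754 and 17.2 to 58.8 FPKM in HCC. Of 7 B and plasma cell markers and 10 endothelial markers 0 passed in edgeR, with 4 and 5 at an unadjusted p under 0.05; 3 and 6 passed without TAE replicate 2, and 1 and 2 with TAE replicate 3 left out. As the mean of log2 CPM minus that of the HCC libraries, macrophage markers stood at 0.73, 0.26 and 1.55 in TAE replicates 1 to 3, hepatocyte markers at -0.84, -1.55 and 0.16, and the 10 class I processing genes at 0.01, 0.23 and 0.27. Among the TAE libraries, B2m (0.43, 0.32 and 1.16) and Nlrc5 (0.43, 0.28 and 0.72) were lowest in replicate 2 and highest in replicate 3. The same order was seen in the means of macrophage, dendritic cell, endothelial, hepatocyte and RT1 genes. It was also seen in those of interferon gamma signalling genes (0.41, 0.28 and 0.46) and class I-like genes (0.15, -0.55 and 0.76). No marker of the cell type lists was at 0 in all libraries, and the part of these cell types in the class I values was not tested.

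**Figure D5:**
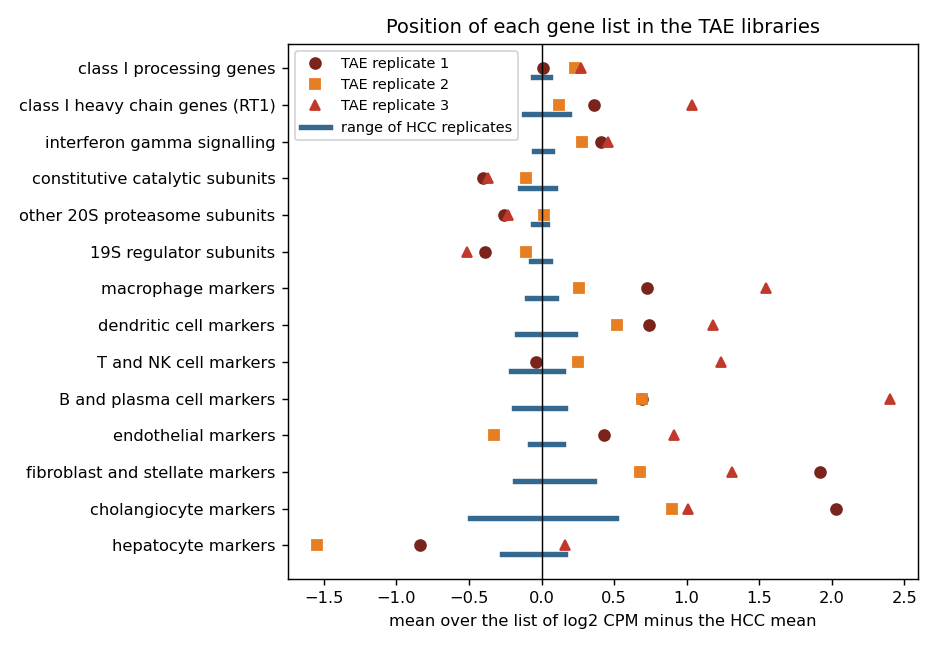
Mean over each gene list of log2 CPM minus the HCC mean, for TAE replicates 1 to 3 (symbols), with the range of the 3 HCC libraries as a bar. The class I processing genes lie between 0.01 and 0.27 in the TAE libraries, the RT1 heavy chain genes reach 1.04 in TAE replicate 3, and macrophage markers reach 1.55 there.

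The genes whose log2 CPM over the 6 libraries were most like the mean of the 10 genes were sought among 8959 others with a symbol and a mean FPKM of at least 5. The 8 nearest were Tceanc2, Sting1, Smim7, Bcl2l1, Crlf2, Rnf31, Fabp5 and Rabgef1, with Pearson's r from 0.979 to 0.959. Sting1, the adaptor through which cytosolic DNA induces interferon, was at 15.4, 20.7 and 16.6 FPKM in TAE and 12.3, 12.9 and 14 FPKM in HCC. None of the 8 passed in edgeR, and with 6 libraries and so many candidates values of this size are a description only.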

How the data were processed

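The authors deposited 1 table that, per the file headers, holds, for each gene in each library, an unnormalized count and an FPKM. The deposited FPKM could be rebuilt from counts, exonic size and library totals for 100% of values (tolerance 0.006). Build mRatBN7.2 is named in the submitters' processing notes, but gene ends on chromosome 1 reach 282724300, beyond its length there, so the build of the deposited coordinates is not settled. The sources used here give no aligner, counter, strand setting or treatment of multi-mapping reads. Per the labels' protocols, libraries were poly(A)-selected and strand-specific. Groups come from the sample titles. The labels do not say that replicates are separate animals, so p-values measure only the spread between these samples, which may be technical. No pair of libraries within a group was alike to within counting noise (lowest chi-square 5.5 per degree of freedom).

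Counts were tested with the quasi-likelihood test of edgeR (version 4.0.16 under R 4.3.3; TMM factors, filterByExpr filter, two-sided, no block, Benjamini-Hochberg over 14499 genes), and alternatives were run with DESeq2 1.42.0 and limma 3.58.1. The SE is the absolute log2 change over the square root of F. The script was tested on simulated counts. Ratios were tested by exact permutation over libraries. The genes and lists were chosen with earlier results of these data known. Text genes are the 10, the 3 constitutive subunits, RT1 class I genes with a mean FPKM of at least 10, and per list those that passed or the 2 with the smallest p. The 6 motifs were chosen after the windows were available. Among the 10 genes, counting error is small except for Tap2. Mr1 and Ifng also rest on few counts, at 14 to 54 and 33 to 68 per library.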

Additional observations from a re-analysis of the deposited data

How the results depend on the processing

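Alternatives changed how many genes passed more than the size of the differences. Against 437 genes in edgeR with TMM, 720 passed with upper-quartile factors, 1036 with library totals, 829 without a count filter, 1667 in DESeq2, 689 and 116 in limma on log2(FPKM + 1) with and without an FPKM filter, and 5975 in limma voom with sample weights. Leaving out 1 library gave 0 to 3569 genes, 0 to 2 of the 10 class I processing genes and 0 to 64 of the other listed genes. Against 14 of the listed genes, 25 passed with library totals, 23 without a count filter, 42 in DESeq2, 4 in limma without an FPKM filter and 103 in voom. Of the 10 genes, 3 passed in voom, namely B2m (0.48, adjusted p = 0.0102), Nlrc5 (0.44, adjusted p = 0.00645) and Psmb9 (0.28, adjusted p = 0.0343), and 1 passed in limma without an FPKM filter, Nlrc5 (0.46, adjusted p = 0.0272). The log2 changes ran from 0.40 to 0.84 for B2m and from 0.38 to 0.59 for Nlrc5 when 1 library was left out. Signs turned for Tap1 (-0.06) and Tapbp (-0.09) in voom, for Psme1 with library totals (0.01), and for Psme2 with library totals (0.04), upper-quartile factors (0.02) and limma on log2(FPKM + 1) with and without a filter and on log2(FPKM + 0.1) with one (0.02); for Psme2 leaving out 1 library gave -0.14 to 0.05. The causes were not tested. B2m, Psmb8, Psmb9, Psmb10 and Nlrc5 kept their sign in all 16 alternatives. The 3 catalytic ratios kept theirs in 8, most of which could not turn it. Every TAE ratio exceeded every HCC ratio, so leaving out 1 library leaves the sign as it is, and pairing by replicate number leaves the mean difference unchanged.

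The counts showed no clear pairing of the libraries by replicate number, but 3 libraries per group cannot settle whether the numbers pair them. Deviations from the group means correlated at 0.1, -0.209 and 0.0335 for replicates 1, 2 and 3, and not every library correlated best with its own number. With the replicate number as a block, edgeR called 0 genes (2984 at an unadjusted p under 0.05), among them 0 of the 10 (2 unadjusted) and 0 of the other listed genes. Among the 10 genes, depth limits Tap2 above all, with 32 to 76 counts per library.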
